A study of Mus musculus with 9 samples.

Results

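Interferon regulatory factor 1 (Irf1) and 7 interferon-inducible GTPase genes (Gbp2, Gbp3, Gbp7, Igtp, Irgm1, Irgm2 and Iigp1) were followed across primary mouse skin fibroblasts exposed to melanoma-conditioned medium. These 8 genes were taken by name from the 55401 genes of the expression table, and all 8 had enough reads to be tested. The cells were wild-type fibroblasts, isolated from newborn mouse skin and kept in DMEM with 10% fetal bovine serum. In 3 libraries the cells had received lipid-depleted tumor-conditioned medium (lipid-depleted TCM), made by treating conditioned medium with Cleanascite, a lipid-removing reagent. In 3 further libraries they had received the conditioned medium itself (TCM), collected from the mouse melanoma line YUMM1.7 after 24 h in the same serum-containing medium. The remaining 3 libraries are labelled control. The labels give neither the medium of the controls nor the length of the exposure, and no library had control medium treated with Cleanascite. They also do not tell whether libraries of a group came from separate cultures or litters, so the p-values below measure the spread between these libraries, which may be technical.

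Interferon gamma acts through a receptor made of IFNGR1 and IFNGR2 and the kinases JAK1 and JAK2, and its signal reaches GAS elements in DNA and switches on Irf1 among other genes. IRF1 then binds ISRE elements, which are also the sites of the complex with STAT2 and IRF9 formed after type I interferon, and Irf1 itself is in addition a target of NF-kB. The guanylate-binding proteins (Gbp genes) and the immunity-related GTPases (Igtp, Irgm1, Irgm2 and Iigp1) are classic products of this system in mouse fibroblasts and macrophages, where they gather on the vacuoles of intracellular pathogens. Within the immunity-related GTPases, Irgm1, Irgm2 and Igtp (also called Irgm3) are regulators that sit on the cell's own membranes and hold effectors such as Iigp1 (Irga6) inactive.

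The stretches of promoter that hold these elements are shown first, because the 8 genes moved in unlike ways and the elements are where the known regulators would bind. Windows from 250 bases before to 50 bases after the RefSeq start site (GRCm38.p6) were available for 7 of the 8 genes; Iigp1 is named only. Capitals mark matches, on either strand, to an ISRE core (GAAA, any 2 bases, GAAA), to a GAS element (TTCNNNGAA) and to the NF-kB consensus, and each stretch is given 5′ to 3′ on the strand of its gene. Neighbouring ISRE matches overlap in Gbp3 and in Irgm1. Irf1 and Gbp3 each have 2 windows, and the second, which is not shown, held no match.
Irf1, chr11:53769904-53770013, plus strand: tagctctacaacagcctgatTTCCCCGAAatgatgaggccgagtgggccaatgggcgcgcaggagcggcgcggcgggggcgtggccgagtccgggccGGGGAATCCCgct
Gbp2, chr3:142620584-142620633, plus strand: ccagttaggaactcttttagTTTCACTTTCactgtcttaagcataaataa
Gbp3, chr3:142559979-142560034, plus strand: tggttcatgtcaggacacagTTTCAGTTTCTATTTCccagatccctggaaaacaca
Gbp7, chr3:142530210-142530312, plus strand: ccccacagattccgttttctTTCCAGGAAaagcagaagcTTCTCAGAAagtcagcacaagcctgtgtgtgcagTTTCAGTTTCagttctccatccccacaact
Igtp, chr11:58199491-58199551, plus strand: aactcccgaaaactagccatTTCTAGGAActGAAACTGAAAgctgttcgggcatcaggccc
Irgm2, chr11:58214882-58214942, plus strand: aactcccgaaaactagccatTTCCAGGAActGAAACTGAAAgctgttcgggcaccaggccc
Irgm1, chr11:48871421-48871470, minus strand: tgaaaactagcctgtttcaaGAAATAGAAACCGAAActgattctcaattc

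An ISRE core was present in all 6 GTPase genes for which a window was available, whereas 3.99% of the 27025 mouse genes with a window held it. Of 8 other guanylate-binding and immunity-related GTPase family genes with a window, 6 held the core too, 4 a GAS element and 1 the NF-kB consensus. Irf1 had no ISRE core in either window but carried a GAS element 90 bases before its start and a match to the NF-kB consensus 13 bases before it. GAS elements were found in 4 of the 7 genes (Irf1, Gbp7, Igtp and Irgm2), against 9.55% of all genes with a window. The NF-kB consensus was found in Irf1 alone of the 7, against 5.14% of all genes with a window. Igtp and Irgm2, whose annotated spans overlap on the plus strand of chromosome 11, had near-copies of one stretch. Their windows shared 67 of 271 runs of 30 bases, and no other pair of these windows shared a single such run. The Irgm2 window lies inside the annotated span of Irgm2, which begins near the start of Igtp. These matches describe letters in a window and do not show that a factor bound there.

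**Figure D1:**
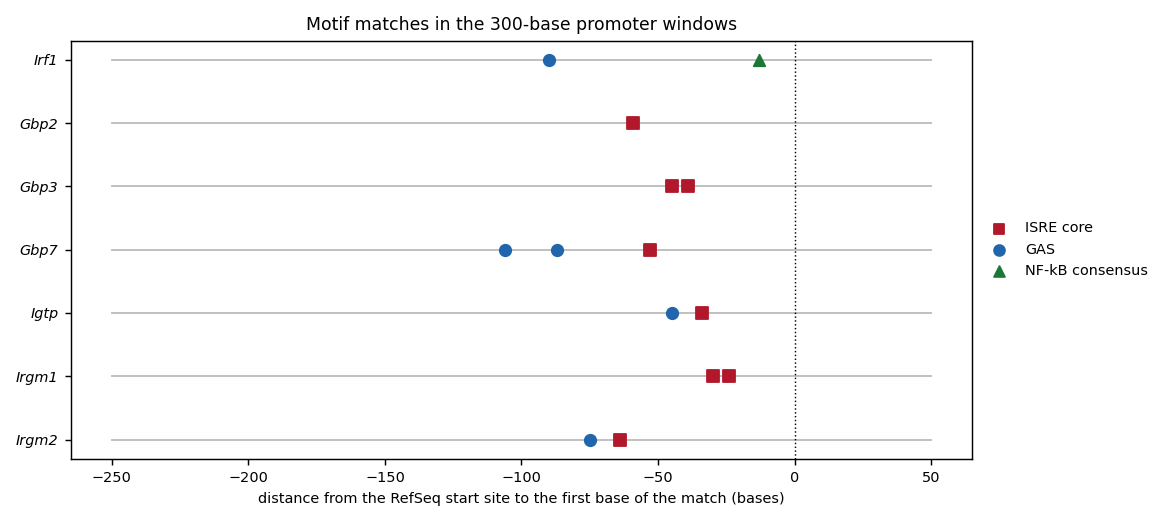
Positions of motif matches in the promoter windows of 7 genes, in bases from the RefSeq start site (dotted line) to the first base of each match. Each grey line is 1 window of 300 bases. ISRE cores (squares) appear in the 6 GTPase genes, GAS elements (circles) in Irf1, Gbp7, Igtp and Irgm2, and the NF-kB consensus (triangle) in Irf1.

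The libraries held between 51015024 and 64965906 reads assigned to genes. Fibroblast marker genes summed to between 1106050 and 1142480 normalized counts in lipid-depleted TCM, between 762172 and 917732 in TCM, and between 1850280 and 1910620 in control. All 9 markers were detected, and 2 collagen genes, Col1a1 and Col1a2, made up most of that sum. In TCM against control 4 of the 9 markers were called higher, Pdgfra (2.72-fold) and Dcn (2.32-fold) among them, and 4 lower. Pericyte markers summed to between 14078 and 14347 in lipid-depleted TCM, between 9772 and 10759 in TCM, and between 23808 and 24821 in control. In bulk RNA, fewer cells of a type and less RNA per cell cannot be told apart. Leukocyte and macrophage markers summed to between 479 and 492 in lipid-depleted TCM, between 261 and 325 in TCM, and between 334 and 418 in control, with 4 of 9 genes under 10 in every library. Lyz2 carried most of this sum in lipid-depleted TCM, whereas Cd68 was highest in TCM and Csf1r in control. Melanocyte markers summed to between 824 and 914 in lipid-depleted TCM, between 679 and 699 in TCM, and between 588 and 676 in control. Mlana, 1 of those markers, had 29.8, 37.5 and 29.3 normalized counts in lipid-depleted TCM, 0.951, 2.84 and 6.74 in TCM, and 5.31, 2.32 and 4.37 in control. Endothelial markers summed to between 171 and 185 in lipid-depleted TCM, between 126 and 148 in TCM, and between 165 and 192 in control. All 6 T and NK cell markers were under 10 in every library, and Cd3e and Cd8a were at 0 throughout. The part of the fibroblast, pericyte, leukocyte, melanocyte and endothelial marker levels in the results that follow was not tested. Control replicate 3 was the highest of the 3 controls for 7 of the 8 genes (all but Irf1) and for 21 of 23 type I interferon genes, while it was highest for 37.7% of all 16950 genes tested. Its part in the comparisons was not tested beyond the values given without it.

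The 3 groups separated these genes into unlike patterns. Irf1 and Gbp2 were higher in lipid-depleted TCM than in either other group and did not pass the test between TCM and control. Gbp3 was higher in TCM than in either other group. Gbp7, Igtp, Irgm1 and Irgm2 were higher than control in both media. Between the media Irgm1 and Irgm2 were called lower in lipid-depleted TCM, while Gbp7 and Igtp were not called. The lipid-depleted libraries of Igtp also lay below those of TCM without overlap. Whether its change differs from those of Irgm1 and Irgm2 was not tested. Counts below are normalized counts (reads divided by a library size factor), changes are differences of log2(normalized count + 1) with their standard error (SE), and adjusted p-values come from limma over all 16950 genes, with a call at an adjusted p below 0.05.

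**Figure D2:**
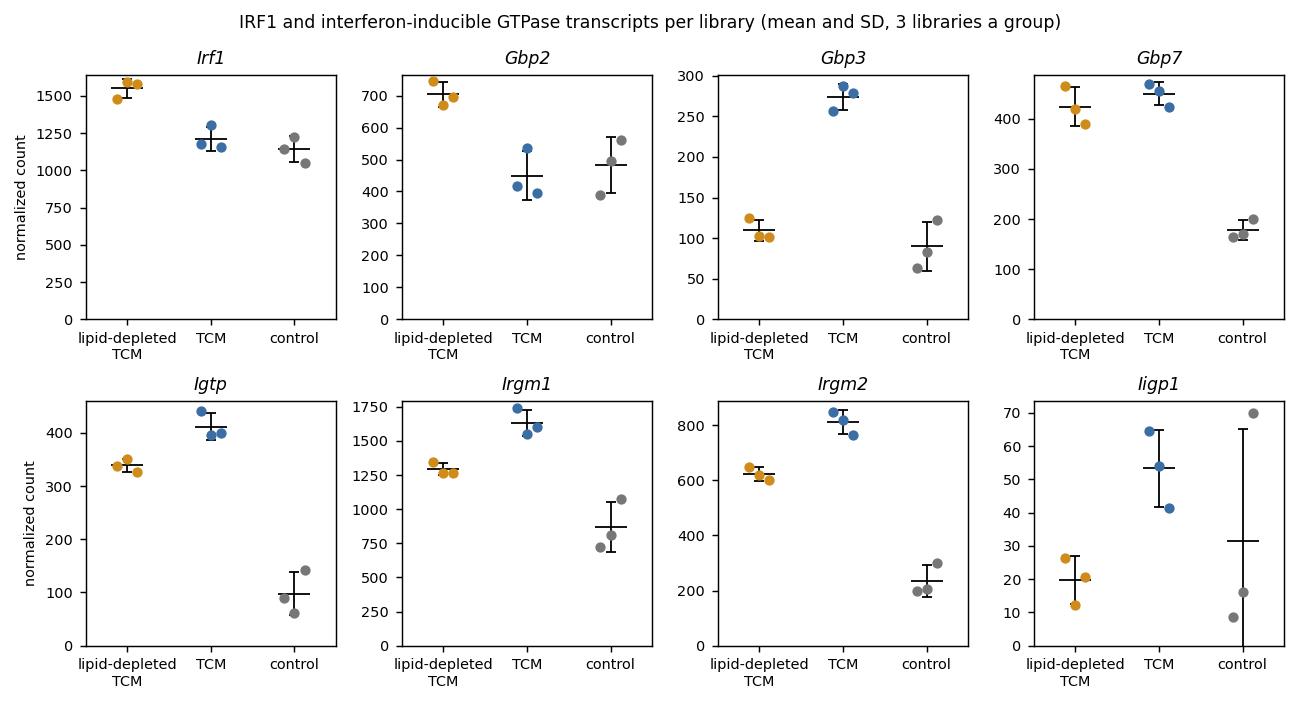
Normalized counts of Irf1 and the 7 GTPase genes in every library (points), with the mean and SD of the 3 libraries of each group (bars; the lower bar of the Iigp1 control group runs below 0 and is clipped). Irf1 and Gbp2 are highest in lipid-depleted TCM, Gbp3 is highest in TCM, and Gbp7, Igtp, Irgm1 and Irgm2 are higher in both media than in control.

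In TCM against control, 5 of the 8 genes were called higher (Gbp3, Gbp7, Igtp, Irgm1 and Irgm2) and 0 lower. Over all genes tested 60.5% were called in this comparison, 29.5% higher and 31.0% lower. A call with an at least 2-fold difference was made for 4 of the 8 genes higher and 0 lower, against 5.26% of all genes higher and 8.24% lower. The median log2 change of the 8 genes was 1.29, against -0.002 over all genes tested. In lipid-depleted TCM against TCM, 2 were called higher (Irf1 and Gbp2) and 3 lower (Gbp3, Irgm1 and Irgm2), where 45.2% of all genes were called, 22.7% higher and 22.5% lower. At 2-fold or more 0 of the 8 genes were called higher and 1 lower (Gbp3), against 3.12% and 2.96% of all genes. The 8 genes thus moved both ways between the media, and their median log2 change was -0.31 against 0.01. In lipid-depleted TCM against control, 6 of 8 were called higher (Irf1, Gbp2, Gbp7, Igtp, Irgm1 and Irgm2) and 0 lower, against 60.0% of all genes called, 29.4% higher and 30.6% lower. At 2-fold or more 3 were called higher and 0 lower, against 5.98% and 7.90% of all genes, and the median log2 change was 0.57 against 0.00. Groups without any overlap of their libraries were found for 5 of 8 genes in TCM against control (63.9% of all genes), for 7 of 8 in lipid-depleted TCM against TCM (52.4%) and for 6 of 8 in lipid-depleted TCM against control (71.2%). The comparisons share libraries, so their counts are not independent of each other.

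**Figure D3:**
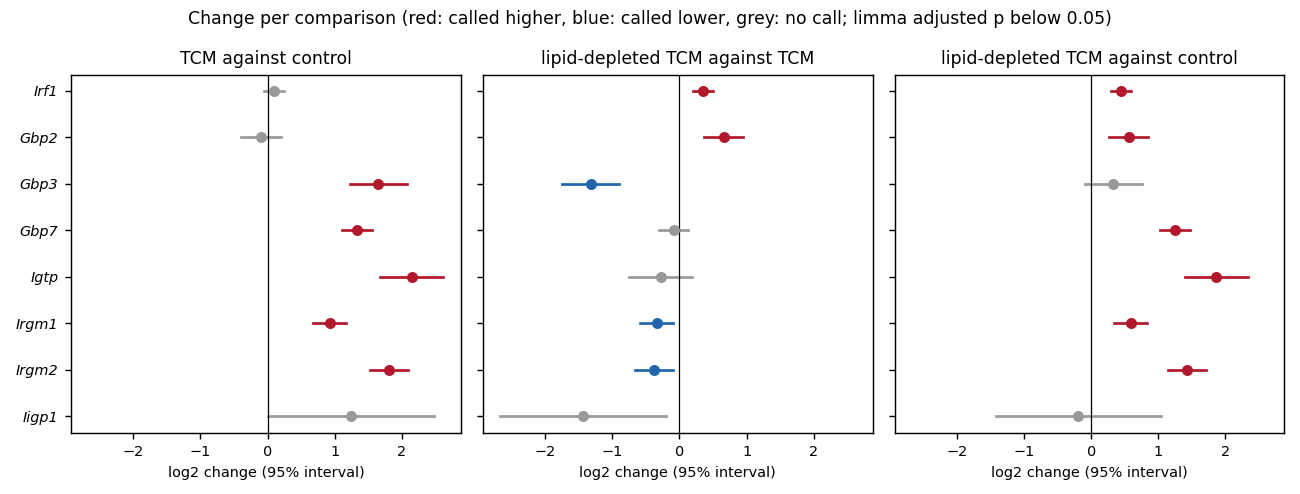
Log2 change of each gene in the 3 comparisons, with 95% intervals from limma; positive values are higher in the group named first. Irf1 and Gbp2 lie to the right of 0 in both comparisons with lipid-depleted TCM and near 0 in TCM against control, Gbp3 turns from 1.65 in TCM against control to -1.32 in lipid-depleted TCM against TCM, and the interval of Iigp1 is the widest in each panel.

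Irf1 (ENSMUSG00000018899.16, chr11:53770014-53778374, plus strand), the transcription factor of the set, had 1475, 1593 and 1580.4 normalized counts in lipid-depleted TCM, 1178, 1304 and 1155 in TCM, and 1139.9, 1226 and 1052 in control. All lipid-depleted libraries lay above all other libraries, and the TCM and control libraries overlapped. Irf1 was 1.28-fold higher in lipid-depleted TCM than in TCM (log2 change 0.35, SE 0.07, limma adjusted p = 0.0012) and 1.36-fold higher than in control (0.45, SE 0.07, adjusted p = 0.000119). Between TCM and control the change was 0.09 (95% interval -0.06 to 0.24, limma adjusted p = 0.281). That last comparison depended on the scaling, since bringing all libraries to the same total gave 0.25 (limma adjusted p = 0.00761; 0.00761 to 0.714 over its alternatives), a scaling that also moved the median of all genes by 0.16. An antisense gene, Gm17334, overlaps 135 exon bases of Irf1 on the other strand and averaged 1.55 normalized counts.

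Gbp2 (ENSMUSG00000028270.12, chr3:142620602-142638008, plus strand), a guanylate-binding protein that IRF1 is known to induce, was highest in lipid-depleted TCM, as Irf1 was. It had 747, 671 and 695 normalized counts in lipid-depleted TCM, 418, 536 and 395 in TCM, and 389.9, 497 and 562 in control. The 3 lipid-depleted libraries were again above the other 6, which overlapped. Gbp2 was 1.58-fold higher in lipid-depleted TCM than in TCM (log2 change 0.66, SE 0.13, limma adjusted p = 0.00161) and 1.47-fold higher than in control (0.56, SE 0.13, adjusted p = 0.0031). TCM and control differed by -0.10 (95% interval -0.39 to 0.19, limma adjusted p = 0.546). The promoter stretch of Gbp2 shown above holds a single ISRE core, 59 bases before the start, and no GAS element or NF-kB consensus match.

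Gbp3 (ENSMUSG00000028268.14, chr3:142560026-142573209, plus strand), a neighbour of Gbp2 in the chromosome 3 cluster, took the opposite course between the media. It had 125, 102 and 102 normalized counts in lipid-depleted TCM, 257, 288 and 278 in TCM, and 63.7, 83.4 and 122 in control. The TCM libraries stood above all others, and the lipid-depleted and control libraries overlapped. Gbp3 was 3.13-fold higher in TCM than in control (log2 change 1.65, SE 0.19, limma adjusted p = 1.04e-05), and lipid-depleted TCM was 2.50-fold lower than TCM (-1.32, SE 0.19, adjusted p = 0.00014). Lipid-depleted TCM and control differed by 0.33 (95% interval -0.09 to 0.75, limma adjusted p = 0.165). Leaving out control replicate 3 raised this value to 0.58 (limma adjusted p = 0.00915), and scaling to the same total gave 0.48 (adjusted p = 0.0432), within 0.00915 to 0.622 over all alternatives.

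Gbp7 (ENSMUSG00000040253.15, chr3:142530342-142550149, plus strand), the third guanylate-binding protein of this cluster, was higher in both media by a similar amount. It had 466, 419 and 389 normalized counts in lipid-depleted TCM, 469.6, 455 and 425 in TCM, and 165, 170.2 and 200.1 in control. The 6 libraries of the media overlapped each other and all lay above the controls. Gbp7 was 2.52-fold higher in TCM than in control (log2 change 1.33, SE 0.10, limma adjusted p = 1.71e-07) and 2.37-fold higher in lipid-depleted TCM than in control (1.25, SE 0.10, adjusted p = 3.07e-07). Lipid-depleted TCM and TCM differed by -0.09 (95% interval -0.31 to 0.13, limma adjusted p = 0.521). Its promoter stretch holds 1 ISRE core and 2 GAS elements, and that of Gbp3 holds 2 overlapping ISRE cores and no GAS element. Of the 50-base runs in Gbp7 transcripts 12.74% also occur in other genes, 10.48% in the pseudogene Gm43802, which had 0 reads. For Gbp3 the share is 3.75%.

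Among the regulatory immunity-related GTPases, Irgm2 (ENSMUSG00000069874.7, chr11:58199618-58222782, plus strand) had 648, 619 and 599.7 normalized counts in lipid-depleted TCM, 849, 820.3 and 763 in TCM, and 199, 205 and 299.7 in control. The groups did not overlap in any pair. Irgm2 was 3.51-fold higher in TCM than in control (log2 change 1.81, SE 0.13, limma adjusted p = 9.35e-08) and 2.69-fold higher in lipid-depleted TCM than in control (1.43, SE 0.13, adjusted p = 8.48e-07). Lipid-depleted TCM was lower than TCM by a smaller step (-0.38, SE 0.13, limma adjusted p = 0.0296). This call was lost without TCM replicate 2 (adjusted p = 0.0619) or without lipid-depleted replicate 1 (0.0517), 2 (0.0758) or 3 (0.0911), and the adjusted p ran from 0.00156 to 0.0911 over its alternatives.

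Igtp (ENSMUSG00000078853.8, chr11:58199556-58207591, plus strand), whose span overlaps that of Irgm2, had 338, 351 and 327 normalized counts in lipid-depleted TCM, 441, 395 and 399.6 in TCM, and 90.3, 61.4 and 142 in control. Igtp had the largest increase of the 8 genes over control in both media. It was 4.42-fold higher in TCM (log2 change 2.14, SE 0.22, limma adjusted p = 2.47e-06) and 3.64-fold higher in lipid-depleted TCM (1.86, SE 0.22, adjusted p = 8.79e-06). The libraries of lipid-depleted TCM lay below those of TCM without overlap, but the difference of -0.28 was not called (95% interval -0.75 to 0.19, limma adjusted p = 0.319), and it was called when only those 6 libraries were fitted (adjusted p = 0.0285; 0.0285 to 0.472 over the alternatives). Igtp and Irgm2 share 162 exon bases on the same strand, and 11.77% of the 50-base runs of Igtp transcripts occur in another gene, all in Irgm2. Reads from these bases do not tell the 2 genes apart, and how the authors counted such reads is not given.

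Irgm1 (ENSMUSG00000046879.7, chr11:48861968-48871683, minus strand), which lies apart from that pair on chromosome 11, had 1344, 1267 and 1265 normalized counts in lipid-depleted TCM, 1741, 1552 and 1600.1 in TCM, and 723, 811 and 1077 in control. No 2 groups overlapped. Irgm1 was 1.90-fold higher in TCM than in control (log2 change 0.92, SE 0.11, limma adjusted p = 1.42e-05), 1.50-fold higher in lipid-depleted TCM than in control (0.59, SE 0.11, adjusted p = 0.000609), and lower in lipid-depleted TCM than in TCM (-0.33, SE 0.11, adjusted p = 0.029). The last call was lost without TCM replicate 3 (limma adjusted p = 0.0557) and without lipid-depleted replicate 2 (0.083) or 3 (0.0833), and ran from 0.00201 to 0.0833 over its alternatives. The promoter stretch of Irgm1 holds 2 overlapping ISRE cores and, unlike those of Igtp and Irgm2, no GAS element.

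Iigp1 (ENSMUSG00000054072.12, chr18:60376027-60392634, plus strand), the effector among them, was read at low levels. It had 26.5, 12.2 and 20.5 normalized counts in lipid-depleted TCM, 64.6, 53.9 and 41.4 in TCM, and 8.50, 16.2 and 70.0 in control. Control replicate 3 was the highest of all 9 libraries, 5.67-fold above the mean of the other controls, and the remaining controls lay below every TCM library. No comparison of Iigp1 was called with the deposited scaling and all 9 libraries in the limma fit. The change was 1.24 in TCM against control (SE 0.57, limma adjusted p = 0.0763), -1.43 in lipid-depleted TCM against TCM (SE 0.57, adjusted p = 0.0567; the libraries did not overlap) and -0.19 in lipid-depleted TCM against control (adjusted p = 0.789). Without control replicate 3 the same values were 2.06 (limma adjusted p = 0.000782), -1.43 (adjusted p = 0.0056) and 0.63 (adjusted p = 0.183), so leaving out 1 control library brought Iigp1 past the threshold in both comparisons with TCM. Scaling all 9 libraries to the same total also gave a call in TCM against control (1.39, limma adjusted p = 0.0436). Over all alternatives the adjusted p-values ran from 0.000782 to 0.4, from 0.00458 to 0.189 and from 0.183 to 0.942.

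The same library was also high among controls, by less, for Igtp (1.88-fold over the mean of the other controls), Gbp3 (1.67-fold), Irgm2 (1.49-fold), Irgm1 (1.40-fold), Gbp2 (1.27-fold) and Gbp7 (1.20-fold). For Irf1 it was lower, at 0.889 times that mean. The increases of Gbp3, Gbp7, Igtp, Irgm1 and Irgm2 in TCM over control were called with every single library left out.

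Levels were compared between genes per kilobase of exon. In lipid-depleted TCM Irf1 was the most abundant with 389.7 ± 16.2 normalized counts per kb, followed by Gbp2 with 280.0 ± 15.4 and Irgm1 with 222 ± 7.79 (SD, n = 3 each, as for the values that follow). Irgm2 (169 ± 6.55) and Igtp (168 ± 5.84) did not differ beyond their spread, and Gbp7 (75.6 ± 6.92), Gbp3 (33.6 ± 4.06) and Iigp1 (3.39 per kb) came last. In TCM Irf1 (305 ± 20.1) and Irgm1 (281 ± 16.9) were within their spread of each other. Below them Irgm2 (219.8 ± 11.8), Igtp (204 ± 12.5) and Gbp2 (179 ± 30.2) formed a group whose neighbours did not separate, and Gbp3 (84.0 ± 4.86) reached the level of Gbp7 (80.1 ± 4.09), with Iigp1 at 9.16 per kb. In control Irf1 led with 287 ± 21.9, followed by Gbp2 (192 ± 34.6) and Irgm1 (149.8 ± 31.7), which were within their spread. Irgm2 (63.5 ± 15.3) and Igtp (48.4 ± 20.2) came next without separating, then Gbp7 (31.8 ± 3.40) and Gbp3 (27.5 ± 9.16), which overlapped, and Iigp1 (5.42 per kb).

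Ratios within a library do not depend on the library's scaling. The ratio of Gbp3 to Gbp2 normalized counts, chosen after their values were seen, was 0.167, 0.153 and 0.146 in lipid-depleted TCM, 0.614, 0.536 and 0.705 in TCM, and 0.164, 0.168 and 0.218 in control. The TCM libraries stood apart, and the other groups overlapped. The ratio of Igtp to Irf1, chosen in the same way, averaged 0.219 ± 0.0112 in lipid-depleted TCM, 0.341 ± 0.0358 in TCM and 0.0881 ± 0.0432 in control (SD, n = 3 each), with no overlap between the groups. Relative to Irf1, Igtp was thus higher in both media than in control, and highest in TCM.

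Other genes of the guanylate-binding and immunity-related GTPase families moved with the GTPases above in the media against control. Of 18 further family genes 8 had enough reads to be tested. In TCM against control 6 were called higher and 0 lower, in lipid-depleted TCM against TCM 0 higher and 2 lower, and in lipid-depleted TCM against control 7 higher and 0 lower. Over all genes 60.5%, 45.2% and 60.0% were called in these comparisons. The median log2 changes of the 8 family genes were 1.96, -0.03 and 1.56. In lipid-depleted TCM against TCM 1 was called lower without TCM replicate 3 or without lipid-depleted replicate 2 or 3, and 1 higher and 1 lower without TCM replicate 1. Gvin1, a very large interferon-inducible GTPase, averaged 543 ± 11.3 normalized counts in lipid-depleted TCM, 1527 ± 131 in TCM and 136 ± 71.5 in control (SD, n = 3 each). It was higher in TCM than in control (log2 change 3.60, limma adjusted p = 7.43e-08) and lower in lipid-depleted TCM than in TCM (-1.49, adjusted p = 0.0004), an order like that of Irgm2 with larger steps.

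Gbp6, a guanylate-binding protein of the mouse chromosome 5 cluster, averaged 122 ± 13.6 normalized counts in lipid-depleted TCM, 112 ± 21.2 in TCM and 14.5 ± 6.13 in control (SD, n = 3 each). It was called higher in both media than in control (log2 changes of 2.94 in TCM and 3.08 in lipid-depleted TCM, limma adjusted p = 1.79e-06 and 1.14e-06), with 0.14 between the media (adjusted p = 0.731). Gbp10 and Gbp9, its relatives, gave 2.79 and 2.7 in TCM against control and 0.10 and -0.37 in lipid-depleted TCM against TCM (limma adjusted p = 0.788 and 0.223). The media overlapped for Gbp10, as for Gbp7, and did not overlap for Gbp9, as for Igtp. These relatives are similar in sequence, so reads may have been split between them. Ifi47, an immunity-related GTPase, was called only in lipid-depleted TCM against control (0.68, limma adjusted p = 0.0438). Of the 8 genes described first 6 were called there too, as were 60.0% of all genes. The change of Ifi47 in TCM against control was 0.17 (limma adjusted p = 0.595), and the difference between its changes was 0.50 (adjusted p = 0.147). The call was lost without control replicate 1 (limma adjusted p = 0.202), TCM replicate 3 (0.0553) or lipid-depleted replicate 1 (0.109), 2 (0.0937) or 3 (0.0747), and the difference between the media was called without TCM replicate 1 (0.71, adjusted p = 0.0367).

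The uncharacterised family genes 9930111J21Rik1 and 9930111J21Rik2 were called higher in TCM than in control (log2 changes of 0.87 and 1.13) and in lipid-depleted TCM than in control (0.95 and 0.99). Gm4951, a relative of Iigp1 with which it shares part of its sequence, was lower in lipid-depleted TCM than in TCM (-1.79, limma adjusted p = 0.0317) at 6.62, 1.01 and 3.91 normalized counts in lipid-depleted TCM, 15.2, 9.46 and 17.3 in TCM, and 4.25, 2.32 and 13.1 in control. That call was lost without TCM replicate 1 (limma adjusted p = 0.0575) or 3 (0.0953) and without lipid-depleted replicate 2 (0.129) or 3 (0.0575). Gbp5 was below the level needed for the test, with 3.31, 9.12 and 13.7 normalized counts in lipid-depleted TCM, 0, 0 and 0.963 in TCM, and 1.06, 0 and 0 in control, so 27 of its reads came from lipid-depleted TCM, against 1 from TCM and 1 from control.

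**Figure D4:**
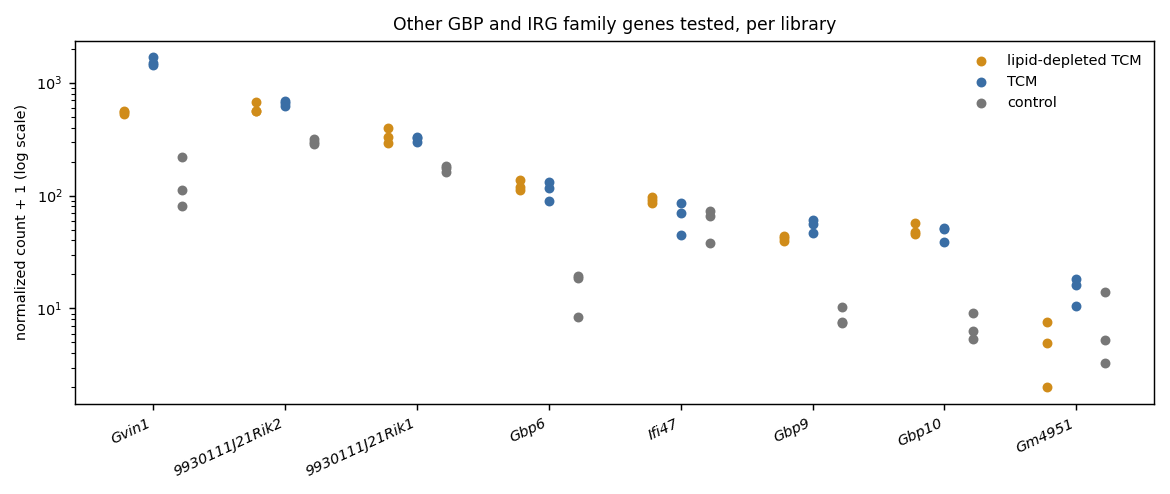
Normalized counts + 1 (log scale) of the 8 tested GTPase family genes outside the 8 genes described above, 1 point per library. Gvin1 is highest in TCM, Gbp6, Gbp9 and Gbp10 are higher in both media than in control, and the 3 groups of Ifi47 lie close together.

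The ligands of the pathway were almost without reads. Ifng, which encodes interferon gamma, had 0 reads in all 9 libraries, which allows up to 3 reads per library (counting error only), and Ifnb1, which encodes interferon beta, had 0.827 normalized counts, a single read, in lipid-depleted replicate 1 and none elsewhere. Interferon supplied by the medium leaves no transcript in these cells, and whether either medium held any was not tested. Of 15 tested ligand, receptor, kinase, STAT and feedback genes, 6 were called higher and 2 lower in TCM against control, 3 higher and 7 lower in lipid-depleted TCM against TCM, and 4 higher and 4 lower in lipid-depleted TCM against control. In all genes 60.5%, 45.2% and 60.0% were called in these comparisons, so the calls against control were not more frequent in this list. The counts against control moved with the scaling, to 11 higher and 0 lower in TCM and 10 higher and 2 lower in lipid-depleted TCM when libraries were brought to the same total.

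Both chains of the interferon gamma receptor were higher in lipid-depleted TCM, within a list called 4 higher and 4 lower against control. The feedback gene Socs1 went the other way, at -0.62 in lipid-depleted TCM against control (limma adjusted p = 0.0149). That call was lost under the same total (limma adjusted p = 0.0513) and without control replicate 1 (0.061) or lipid-depleted replicate 3 (0.0581). Ifngr2 averaged 5397 ± 153 normalized counts in lipid-depleted TCM, 4277 ± 326 in TCM and 3928 ± 73.2 in control (SD, n = 3 each), with log2 changes of 0.34 against TCM and 0.46 against control (limma adjusted p = 0.000251 and 9.51e-06). Between TCM and control the change of Ifngr2 was 0.12 (limma adjusted p = 0.07), and it was called under the same total (0.28, adjusted p = 0.00029), under TMM scaling (0.15, 0.024) and without TCM replicate 1 (0.17, 0.00511). Ifngr1, chosen after its values were seen, averaged 3602 ± 121 in lipid-depleted TCM, 2605 ± 41.5 in TCM and 2622 ± 41.4 in control (SD, n = 3 each). Its change was 0.47 in lipid-depleted TCM against TCM and -0.01 in TCM against control (limma adjusted p = 2.87e-06 and 0.863), and the second was 0.15 under the same total (adjusted p = 0.00855).

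Stat2, a transcription factor of the type I interferon response, averaged 1952 ± 119 normalized counts in lipid-depleted TCM, 4377 ± 226 in TCM and 2047 ± 102 in control (SD, n = 3 each). It was highest in TCM, as Gbp3 was, with changes of 1.10 in TCM against control and -1.17 in lipid-depleted TCM against TCM (limma adjusted p = 7.24e-09 and 1.34e-08). The kinase gene Jak2 and the feedback inhibitor gene Socs3 were likewise higher in TCM than in control (0.96 and 1.73) and lower in lipid-depleted TCM than in TCM (-0.66 and -1.47).

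Of 9 tested genes for other IRF factors and their binding partners, 4 were called higher and 1 lower in TCM against control, 1 higher and 3 lower in lipid-depleted TCM against TCM, and 4 higher and 1 lower in lipid-depleted TCM against control; scaling to the same total gave 6 higher and 1 lower in TCM against control. The 5 of 9 called in TCM against control stand against 60.5% of all genes. Without TCM replicate 1 the counts were 7 higher and 1 lower in TCM against control and 1 higher and 6 lower in lipid-depleted TCM against TCM. None of the genes of this list named here was highest in lipid-depleted TCM, as Irf1 was. Irf7, which amplifies the type I interferon response, averaged 221 ± 10.2 normalized counts in lipid-depleted TCM, 854 ± 65.0 in TCM and 132 ± 41.3 in control (SD, n = 3 each). It was higher in TCM than in control (log2 change 2.72, limma adjusted p = 2e-08) and lower in lipid-depleted TCM than in TCM (-1.94, adjusted p = 1.27e-06). Irf9, the DNA-binding partner of STAT2, gave 1.23 and -0.98 in these comparisons (limma adjusted p = 2.7e-08 and 6.32e-07).

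Irf2, an ISRE-binding factor known to oppose IRF1, was higher in both media than in control (log2 changes of 0.78 in TCM and 0.53 in lipid-depleted TCM, limma adjusted p = 6.58e-07 and 2.01e-05). Irf5, which acts downstream of pattern-recognition receptors, went the other way, with 310.0 ± 9.73 normalized counts in lipid-depleted TCM, 205 ± 13.6 in TCM and 1522 ± 60.3 in control (SD, n = 3 each). Its change was -2.89 in TCM and -2.29 in lipid-depleted TCM against control (limma adjusted p = 9.13e-12 and 7.02e-11).

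Targets of IRF1 and interferon gamma outside the GTPases were counted next. Of 17 tested, 10 were called higher and 3 lower in TCM against control, 7 higher and 2 lower in lipid-depleted TCM against TCM, and 14 higher and 0 lower in lipid-depleted TCM against control. Over all genes 60.5%, 45.2% and 60.0% were called in these comparisons. Between the media 5 targets were called higher and 2 lower without TCM replicate 2 or without lipid-depleted replicate 2 or 3. Scaling to the same total gave 16 higher and 0 lower in lipid-depleted TCM against control. The chemokine gene Cxcl10 had 836, 717 and 679 normalized counts in lipid-depleted TCM, 12.4, 5.68 and 2.89 in TCM, and 7.44, 18.5 and 74.4 in control. Its change was 6.72 in lipid-depleted TCM against TCM and 5.0 against control (limma adjusted p = 2.74e-06 and 1.63e-05). Cxcl9, another ligand of the same receptor, had 18.2, 19.3 and 25.4 in lipid-depleted TCM, 0.951, 0 and 0 in TCM, and 3.19, 2.32 and 5.47 in control. Both chemokine genes were highest in lipid-depleted TCM, as Irf1 and Gbp2 were. Unlike those genes, they were also called lower in TCM than in control (-1.72 for Cxcl10 and -1.84 for Cxcl9, limma adjusted p = 0.03 and 0.00709). For Cxcl10 that call was lost without control replicate 2 (limma adjusted p = 0.0512) or 3 (0.134) and without TCM replicate 2 (0.0599) or 3 (0.123).

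Ccl5, a chemokine gene controlled by IRF and NF-kB factors, averaged 62.0 ± 5.55 normalized counts in lipid-depleted TCM, 2.23 ± 0.573 in TCM and 3.27 ± 2.16 in control (SD, n = 3 each), a log2 change of 4.30 in lipid-depleted TCM against TCM (limma adjusted p = 5.38e-06). Cd274, which encodes the checkpoint ligand PD-L1, had the pattern of Gbp7, with 203 ± 33.2 in lipid-depleted TCM, 206 ± 39.8 in TCM and 53.9 ± 7.15 in control. Its change was 1.91 in TCM and 1.89 in lipid-depleted TCM against control (limma adjusted p = 8.41e-07 and 8.88e-07). Nlrc5, the transactivator of class I antigen presentation genes, had the order of Irgm2, with 1.92 in TCM against control and -0.98 in lipid-depleted TCM against TCM (limma adjusted p = 5.49e-08 and 5.96e-05).

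Genes of the type I interferon response, of which 10 of the 15 with a promoter window held the same ISRE core, were set beside the GTPases. Of 20 tested, 18 were called higher and 0 lower in TCM against control, 0 higher and 16 lower in lipid-depleted TCM against TCM, and 10 higher and 0 lower in lipid-depleted TCM against control. The last count was 15 higher without control replicate 3 and 12 under the same total. It was 8 without control replicate 1 or without lipid-depleted replicate 1 or 3. Over all genes 60.5%, 45.2% and 60.0% were called in these comparisons. The median log2 changes of the 20 type I interferon genes were 2.43, -1.31 and 0.59. They have the signs of those of the 8 genes (1.29, -0.31 and 0.57), with a larger step between the media. Isg15, a ubiquitin-like modifier, averaged 149 ± 33.2 normalized counts in lipid-depleted TCM, 928 ± 155 in TCM and 110.4 ± 77.6 in control (SD, n = 3 each), and was lower in lipid-depleted TCM than in TCM (log2 change -2.64, limma adjusted p = 7.49e-05). Ifit3, by contrast, averaged 529.6 ± 36.4 in lipid-depleted TCM, 475 ± 21.7 in TCM and 86.1 ± 61.8 in control, so that both media lay above control, as for Gbp7 and Gbp6. 

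NF-kB subunit and feedback genes moved between the media in the direction of Irf1. Of 12 tested, 2 were called higher and 4 lower in TCM against control (5 higher and 4 lower when scaled to the same total, 4 and 4 without TCM replicate 1). In lipid-depleted TCM against TCM 9 were called higher and 1 lower (9 and 2 without TCM replicate 1). In lipid-depleted TCM against control 8 were called higher and 1 lower. Over all genes 60.5%, 45.2% and 60.0% were called in these comparisons. Nfkbia, which encodes the NF-kB inhibitor and is itself an NF-kB target, averaged 1351 ± 86.3 normalized counts in lipid-depleted TCM, 477 ± 59.3 in TCM and 850.3 ± 38.8 in control (SD, n = 3 each). Its change was 1.51 in lipid-depleted TCM against TCM and -0.84 in TCM against control (limma adjusted p = 4.44e-08 and 3.66e-06). Tnfaip3, which encodes the feedback inhibitor A20, averaged 529.9 ± 13.5 in lipid-depleted TCM, 184 ± 21.7 in TCM and 249 ± 24.1 in control, a change of 1.53 in lipid-depleted TCM against TCM (limma adjusted p = 2.06e-07). The exception with all 9 libraries was Bcl3, an atypical inhibitor protein that binds NF-kB subunits in the nucleus. Its change was 2.23 in TCM against control and -1.33 in lipid-depleted TCM against TCM (limma adjusted p = 8.59e-08 and 2.32e-05). The NF-kB consensus was present in the promoter windows of 7 of 10 genes of this list, against 5.14% of all genes with a window. An ISRE core was present in 0 of 10, against 3.99%. Among the 7 genes described first that have a window, only Irf1 had the consensus. Gbp2, also highest in lipid-depleted TCM, had an ISRE core and no consensus match. Whether NF-kB acted on any of these genes was not tested.

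**Figure D5:**
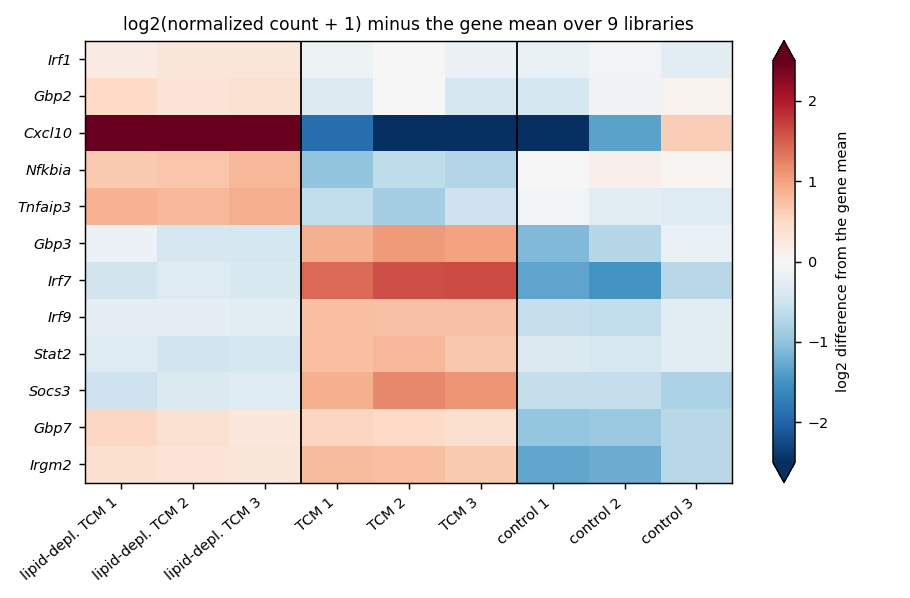
Log2(normalized count + 1) of 12 genes in the 9 libraries, each minus its mean over the libraries; the genes were picked for display after their values were seen, and the color scale ends at 2.5 in either direction, which Cxcl10 exceeds. Irf1, Gbp2, Cxcl10, Nfkbia and Tnfaip3 are highest in lipid-depleted TCM, Gbp3, Irf7, Irf9, Stat2 and Socs3 in TCM, and Gbp7 and Irgm2 are higher in both media than in control.

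The genes with profiles most like these were found by Pearson correlation of log2(normalized count + 1) over the 9 libraries. Since the libraries form 3 groups of 3, such a value mostly reflects the order of the group means. Nearest to Irf1 were Akr1c13 (r = 0.983), Camk2b (0.978), Cnbd2 (0.975), Psmf1 (0.968) and the ribosomal protein pseudogene Rpl19-ps1 (0.968), whose reads may come from near-identical copies. Nearest to the mean profile of the 7 GTPase genes were Ifih1 (r = 0.982), the cytosolic RNA sensor MDA5 and itself an interferon-induced gene, Cpeb4 (0.981), Prkaa2 (0.977), Pld1 (0.974) and Rars2 (0.972). The 8 genes themselves were left out of this search.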

How the data were processed

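RNA was extracted with Qiagen RNeasy kits and made into Illumina TruSeq stranded libraries, per the labels' protocols. The submitters' processing notes name the mm10 build, the aligner STAR 2.7.9a, DESeq2, Trim Galore 0.6.6 and FastQC. Which annotation, counting tool and strand option the authors used is not given in the sources used here. The deposited table holds a normalized signal for 55401 genes, which the values show to be counts of reads scaled by 1 factor for each library: 100% of values gave whole reads at a tolerance of 0.01. Gene symbols came from GENCODE M21 (55141 IDs matched without the version).

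Genes with a value of at least 10 in at least 3 libraries (16950) were tested with limma 3.58.1 in R 4.3.3 on log2(value + 1), with 3 group means over all 9 libraries, 6 residual degrees of freedom, a mean-variance trend and Benjamini-Hochberg adjustment. Fold changes are on that log2 scale and understate changes of low genes. Limma was used in this way because the deposited values are normalized, and a count test on the recovered reads (edgeR 4.0.16) was run as an alternative. The count test called 10232 genes between TCM and control, 7744 between the media, and 10174 between lipid-depleted TCM and control. The limma step was tested on simulated data. With 3 libraries against 3 an exact permutation test of 1 gene cannot go below 0.1. The 8 genes and all gene lists were chosen with earlier results of these data known. Named were the 8 genes, any other family gene, at most 3 called genes per further list and comparison (largest change without overlap) and the 5 genes most like each profile, with exceptions marked in the text; 1 gene counted in a list is not reported here. Replicates of a group differed by more than sampling noise, and most so in TCM. The chi-square per gene between 2 libraries ran from 15.48 to 37.7 in TCM. It ran from 2.43 to 6.68 in control and from 3.37 to 7.99 in lipid-depleted TCM. The highest values were those of TCM replicate 1 against replicates 2 (37.7) and 3 (25.3). Promoter windows are from RefSeq; motifs were searched on both strands. Alternatives were other pseudocounts, filters and scalings, count tests, fits to the compared groups alone, a replicate block, and leaving out each library.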

Additional observations from a re-analysis of the deposited data

How the results depend on the processing

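Of 456 alternative values for single genes, 434 kept direction and side of the threshold, 11 passed it newly, 7 missed it and 4 changed sign. The sign changes were in values not called: Gbp2 in TCM against control was 0.0581 when libraries were scaled to the same total and ran from -0.2449 to 0.0184 with 1 library left out (highest without control replicate 3), and Iigp1 in lipid-depleted TCM against control ran from -0.8188 to 0.6321 with 1 library left out (0.6321 without control replicate 3, and 0.10 without lipid-depleted replicate 2). The number of the 8 genes called ran from 5 to 6 in TCM against control, from 3 to 6 in lipid-depleted TCM against TCM and from 6 to 7 in lipid-depleted TCM against control when 1 library was left out; the count of 3 arose without lipid-depleted replicate 2 or 3. Genes called ran from 9201 to 10701, from 6229 to 8615 and from 9088 to 11088. Under equal library totals the median change over all genes shifted by 0.16 in TCM against control and 0.15 in lipid-depleted TCM against control. It gave 7255 genes higher and 3685 lower (4995 and 5253 as deposited) in TCM against control, and 7044 and 3698 (4984 and 5184) in lipid-depleted TCM against control. With the replicate number as a block 5, 5 and 6 of the 8 genes were called in the 3 comparisons, as without it, and 9972, 7328 and 9961 genes in all. Same-numbered libraries did not deviate together (correlations of -0.025 to 0.027), so the numbers are not taken as pairs. Depth limits Iigp1, Gm4951 and Gbp5, whose low reads make their changes imprecise.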
